A study of Mus musculus with 12 samples.

Results

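The transcripts examined here encode MAP kinases, the kinases above them and their partners, the protein tyrosine and serine/threonine phosphatases, and the protein kinases C, A, AMPK and AKT. Members were taken by gene symbol, as all spots whose single symbol, updated by Entrez ID, starts with Mapk, Map2k, Map3k, Map4k, Dusp, Ptpn, Ptpr, Ppp, Prka, Prkc with a letter, or Akt with a digit. The rule gave 80 spots for 79 genes, since Map3k12 was on 2 spots, out of 5030 spots on the array. Of those, 4633 carried 1 symbol, for 4605 genes.

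Total RNA was hybridised from mouse cells in 4 groups of 3 arrays. 2T3 is an osteoblast line from a mouse in which the BMP-2 promoter drives the SV40 T antigen, and it was taken at C0 and at low density. MLO-Y4 is an osteocyte line from a mouse in which the osteocalcin promoter drives T antigen, and it was taken at low and at high density. All 12 samples are thus cells carrying T antigen, with no other treatment named. The labels contrast low density with confluency for 2T3, and cells with and without gap junctions for MLO-Y4. Reading C0 as confluent and high as the state with gap junctions is an inference from those labels. Each cell type is 1 line, so cell type, line and source mouse cannot be told apart. Nothing says that arrays of a group came from separate cultures, so p-values measure the spread between arrays, which may be technical.

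MAP kinase signalling runs as a relay. A MAP3K phosphorylates a MAP2K, which phosphorylates a MAP kinase, and dual-specificity and other phosphatases switch the relay off. The ERK branch answers mainly to growth factors, and the JNK and p38 branches to stress, cytokines and mechanical load. In bone these kinases, together with AKT and the protein kinases A and C, carry signals from parathyroid hormone, BMPs and strain, and protein phosphatase 2A opposes several of them.

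Values are spot intensities, background-subtracted as deposited, that were quantile-normalized so that the arrays share 1 distribution, then raised to a floor of 6.08. A spot counted as above the detection limit of an array when it exceeded the size of that array's most negative deposited value. Array medians ran from 4 to 55 and total intensities from 212491 (2T3 low replicate 3) to 1680311. Between 50.9% and 74.8% of spots were above the limit on 10 arrays, but 38.1% on MLO-Y4 low replicate 1 and 37.9% on MLO-Y4 high replicate 1. On those 2 arrays 39 and 37 of the 80 member spots were above it, against 53 to 68 on the others. Member spots above the limit on all 12 arrays numbered 25 (31.25%, against 24.9% of all spots). Those above it on none numbered 2, Ptprc and Ptpro. Of 4 measured osteocyte markers, Ackr3, Pdpn and Cd44 rose in MLO-Y4 by 4.40, 2.55 and 2.43 on the log2 scale, and Phex was above the limit on no array. Over both densities none of 4 osteoblast markers passed between the lines. With equal medians 1 was higher and on detected spots 1 was lower, the scalings described below. Between MLO-Y4 high and 2T3 C0, 1 was lower in MLO-Y4 under quantile normalization and under both of those scalings. In bulk RNA fewer cells of a type and less RNA per cell cannot be told apart.

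Setting MLO-Y4 against 2T3, over both densities, asked which of these regulators differ between an osteocyte line and an osteoblast line. Of the 80 member spots, 1 was higher in MLO-Y4, Mapkapk2, and 1 was lower, Ppp2r5d (limma, Benjamini-Hochberg adjusted p under 0.05 over all 5030 spots). Over the whole array 9.3% of spots passed, 5.83% as higher and 3.48% as lower, so 2 of 80 (2.5%) is a share below the background. At an unadjusted p under 0.05 the members' share was 22.5% (18 spots) and that of all spots 21.1%. The median log2 difference, MLO-Y4 minus 2T3, was -0.20 over the members and -0.03 over all spots. These medians moved with the scaling. With arrays scaled to equal medians the medians were 0.13 and 0.11, and with arrays scaled on the detected spots -0.62 and -0.41. The split of all called spots moved with it, from 293 higher and 175 lower to 414 and 94 with equal medians and 240 and 308 on the detected spots. The sign of the line difference was the same under the 3 scalings for 58 member spots (23 higher, 35 lower in MLO-Y4) and differed for 22.

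**Figure D1:**
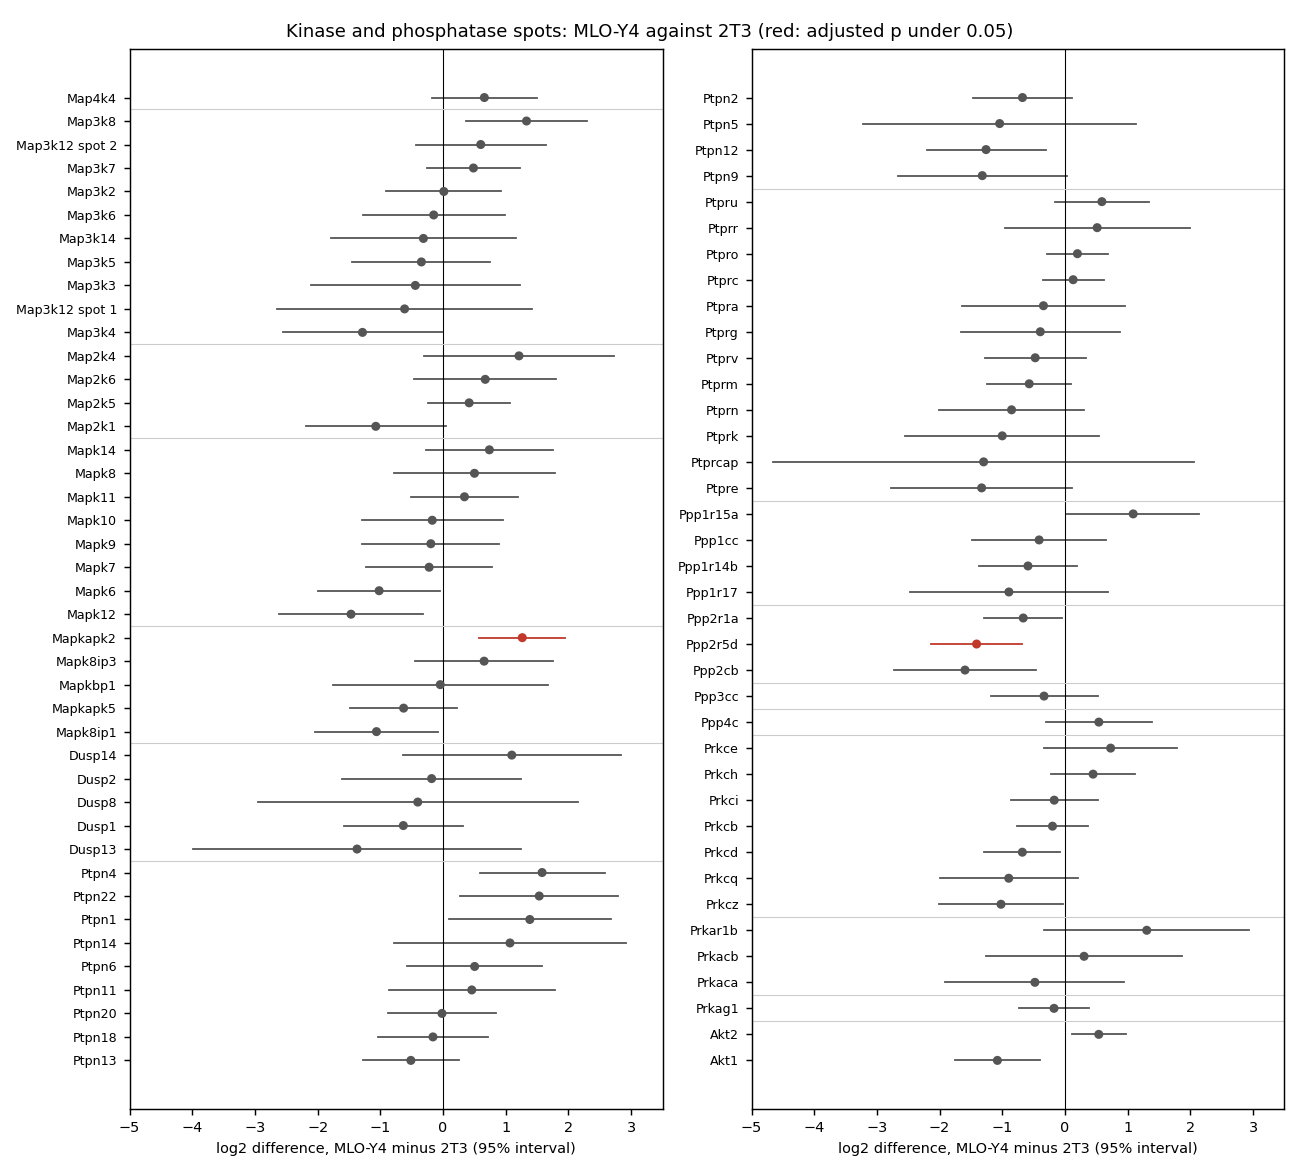
Log2 difference in normalized intensity, MLO-Y4 minus 2T3, of each of the 80 member spots, grouped by role, with bars for the 95% interval from limma over 12 arrays. The 2 red points passed the test, Mapkapk2 at 1.26 and Ppp2r5d at -1.41, and the widest interval is that of Ptprcap, from -4.66 to 2.06.

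At the top of the relay, none of the 11 Map4k and Map3k spots passed the test between lines. Map3k8 (TPL2), which links inflammatory receptors to MEK, came nearest. Its normalized intensity was 21.9, 6.92 and 8.75 in 2T3 C0, 41.3, 39.8 and 14.1 in 2T3 low, 45.1, 31 and 19 in MLO-Y4 low, and 53, 116 and 47.4 in MLO-Y4 high. The MLO-Y4 high arrays all lay above the 6 2T3 arrays, while the MLO-Y4 low arrays overlapped them. The line difference was 1.33 on the log2 scale (SE 0.43, adjusted p = 0.0957, and 0.0484 with the array number as a block). Map3k4, which acts on the p38 and JNK branches, lay the other way at -1.29 (SE 0.57, adjusted p = 0.232). It exceeded the limit on 4 2T3 arrays of 6 and 1 MLO-Y4 array of 6.

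Map3k7 (TAK1), the kinase downstream of TGF-beta and interleukin-1 receptors, was above the limit on all 12 arrays. It lay from 32.1 to 81.3 in 2T3 and from 44.1 to 114 in MLO-Y4, with overlapping lines and a difference of 0.48 (95% interval -0.26 to 1.22). Map4k4, a kinase upstream of JNK, was also above the limit on every array, from 34.5 to 84.1 in 2T3 and from 37.1 to 126 in MLO-Y4. Its difference was 0.66 (interval -0.18 to 1.5). Map3k6, a relative of the stress kinase ASK1, lay from 30.3 to 320.2 and from 58.1 to 138, a difference of -0.15. Map3k5, which encodes ASK1 itself, was above the limit on 2 arrays, both 2T3 low. Map3k2 was above it on 3 arrays. Map3k3, Map3k14 (NIK, of the non-canonical NF-kappaB pathway) and spot 1 of Map3k12 had intervals that reached from below -1 to above 1. The 2 spots of Map3k12, which encodes the kinase DLK known from neurons, differed in sign, with -0.61 (SE 0.91) at spot 1 and 0.60 (SE 0.47) at spot 2. They give no common direction for that gene.

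Of the 4 MAP2K spots none passed, and none was above the limit on all 12 arrays. Map2k1 (MEK1), the kinase that activates ERK, was at 43.3, 33.8 and 41.2 in 2T3 C0, 44.4, 115 and 108 in 2T3 low, 60.3, 25.6 and 29.3 in MLO-Y4 low, and 45.1, 30.7 and 6.08 in MLO-Y4 high. The lines overlapped. Its line difference of -1.07 (SE 0.50) had an adjusted p of 0.261, and of 0.0302 only under scaling on detected spots. Map2k4, which activates JNK, pointed the other way at 1.21 (SE 0.68, adjusted p = 0.365). Its lowest value, the floor, was on 2T3 low replicate 1. Map2k5, the activator of ERK5, differed by 0.42 (interval -0.24 to 1.07) and Map2k6, an activator of p38, by 0.67 (interval -0.46 to 1.81). Map2k6 was above the limit on 4 arrays.

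None of the 8 MAP kinase spots passed the test between lines, and 3 (Mapk6, Mapk9 and Mapk14) were above the limit on all 12 arrays. Mapk14 (p38 alpha), the main p38 kinase, was at 21.9, 19.2 and 7.75 in 2T3 C0, 16.5, 35.9 and 53.3 in 2T3 low, 70.7, 23.6 and 19 in MLO-Y4 low, and 58.9, 41.8 and 28.3 in MLO-Y4 high. Only the comparison of high with C0 separated without overlap. Over the lines the difference was 0.74 (SE 0.46, adjusted p = 0.414). Mapk12 (p38 gamma) had the smallest p of the MAP kinases. It was at 11.6, 71.2 and 43.7 in 2T3 C0 and at 84.2, 92.8 and 58.9 in 2T3 low, against 26.4, 14.5 and 21.2 in MLO-Y4 low and 28.7, 25.1 and 6.33 in MLO-Y4 high. All but 1 of the 6 2T3 arrays, C0 replicate 1, lay above all MLO-Y4 arrays, and the difference was -1.47 (SE 0.52, adjusted p = 0.121). Mapk11 (p38 beta) differed by 0.34 (SE 0.38).

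The JNK genes gave small differences with wide intervals. Mapk8 (JNK1) was at 145, 50.8 and 13 in 2T3 C0, 11.2, 22.6 and 37.2 in 2T3 low, 83.4, 48.4 and 39.4 in MLO-Y4 low, and 37.3, 22.2 and 54.8 in MLO-Y4 high. The arrays of 2T3 C0 alone spanned nearly all of the others, and the line difference was 0.50 (interval -0.78 to 1.78), with a sign that turned under scaling on detected spots (-0.15). Mapk9 (JNK2) differed by -0.20 (interval -1.29 to 0.90). Mapk10 (JNK3), known mainly from neurons, was above the limit on 1 array of 12. Mapk6 (ERK3), an atypical MAP kinase, lay from 245 to 735 in 2T3 and from 72.2 to 309 in MLO-Y4, a difference of -1.02 (SE 0.44, adjusted p = 0.217), which passed with the array number as a block (0.0350). Mapk7 (ERK5) differed by -0.22 (interval -1.23 to 0.79).

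Mapkapk2 was the member that rose in MLO-Y4. It encodes MK2, the kinase directly below p38, known for stabilising cytokine messenger RNAs. Its normalized intensity was 146, 129 and 162 in 2T3 C0, 131, 132 and 137 in 2T3 low, 439, 216 and 382 in MLO-Y4 low, and 454, 172 and 491 in MLO-Y4 high. The 6 MLO-Y4 arrays all lay above the 6 2T3 arrays, and replicate 2 was the lowest at both MLO-Y4 densities. The geometric mean went from 139 to 334, a rise of 1.26 on the log2 scale (SE 0.31, 95% interval 0.58 to 1.95, adjusted p = 0.0291). Between arrays of the same number it was 1.69, 0.56 and 1.54. The fit took the arrays as independent, although same-numbered MLO-Y4 arrays varied together, so its SE, interval and p-value leave that pairing out. The call was kept with equal medians (2.07, adjusted p = 0.0122) and on the detected spots (1.21, adjusted p = 0.0440). It was lost in 9 of the 12 fits that left out 1 array, with differences from 1.12 to 1.5 over the 12 fits and adjusted p from 0.00603 to 0.0706. Only the fits without 2T3 C0 replicate 1, MLO-Y4 low replicate 2 or MLO-Y4 high replicate 2 kept it.

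**Figure D2:**
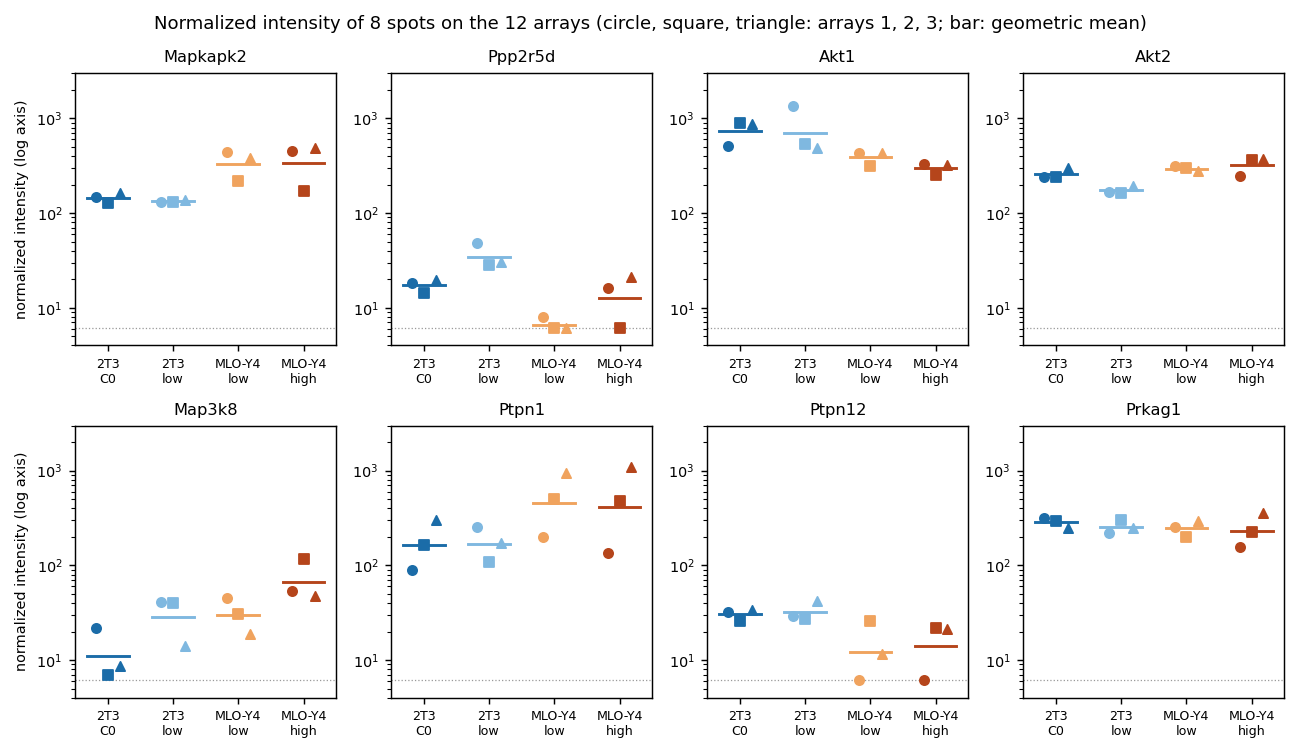
Normalized intensity (log axis) of 8 member spots on each of the 12 arrays by group, with a bar at the geometric mean of 3 arrays and a dotted line at the floor of 6.08. Mapkapk2 and Akt1 separate the lines without overlap, in opposite directions, while Prkag1 lies from 156 to 357 across all groups.

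Mapkapk5 (PRAK), another kinase bound by MAP kinases, did not follow Mapkapk2. It was above the limit on all 12 arrays, from 61.3 to 309 in 2T3 and from 73.9 to 218 in MLO-Y4, and its difference was -0.63 (SE 0.38, adjusted p = 0.407). The scaffold gene Mapk8ip1 (JIP1), whose product holds the JNK relay together, lay at -1.06 (SE 0.44, adjusted p = 0.201). It exceeded the limit on 5 2T3 arrays and 2 MLO-Y4 arrays. Mapk8ip3 (JIP3) differed by 0.65 and Mapkbp1, a JNK-binding scaffold, by -0.05. Neither passed.

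None of the 5 dual-specificity phosphatase spots passed between lines. Dusp1 (MKP-1), an immediate early phosphatase of p38 and JNK, was above the limit on all arrays. It was at 181, 201 and 196 in 2T3 C0, 452, 578 and 752 in 2T3 low, 152, 284 and 127 in MLO-Y4 low, and 553, 359.9 and 91.6 in MLO-Y4 high. The lines overlapped, and the difference was -0.63 (SE 0.43, adjusted p = 0.468), with a sign that turned under equal medians (0.15). Dusp2 differed by -0.18, Dusp14 by 1.10 (SE 0.78) and Dusp8, a phosphatase of JNK and p38, by -0.40 (SE 1.14). Dusp13 had a difference of -1.37 with an SE of 1.18, since it was at the floor on replicate 1 of both MLO-Y4 groups and at 146 to 237 on the other 4 MLO-Y4 arrays.

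The non-receptor tyrosine phosphatases gave 13 spots, of which none passed. Ptpn4, a phosphatase with a FERM domain, was at 16.6, 9.58 and 10.4 in 2T3 C0, 6.08, 7.75 and 6.08 in 2T3 low, 39.3, 11.3 and 65.7 in MLO-Y4 low, and 13.8, 19.7 and 42.7 in MLO-Y4 high. The lines overlapped through MLO-Y4 low replicate 2 and MLO-Y4 high replicate 1, and the difference was 1.58 (SE 0.45, adjusted p = 0.0562). It was above the limit on 3 arrays of each line. Ptpn12 (PTP-PEST), which acts at focal adhesions, separated the lines without overlap. Its values were 32.2, 25.8 and 33.7 in 2T3 C0, 29.3, 27.3 and 42.2 in 2T3 low, 6.08, 25.6 and 11.5 in MLO-Y4 low, and 6.08, 21.6 and 21.2 in MLO-Y4 high. The difference was -1.26 (SE 0.43, adjusted p = 0.110), and the gap between lines is as small as 25.8 against 25.6. Between arrays of the same number it was -2.34, -0.17 and -1.27. On replicate 1 of both MLO-Y4 groups the spot was at the floor. The limits of those arrays, 47.2 and 47.8 after normalization, exceeded every 2T3 value.

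Ptpn1 (PTP1B), the phosphatase of the insulin receptor, was above the limit on all arrays. It was at 90.1, 164 and 298 in 2T3 C0, 254, 109 and 173 in 2T3 low, 199, 496 and 943 in MLO-Y4 low, and 135, 477 and 1099 in MLO-Y4 high. Replicates 2 and 3 of MLO-Y4 lay above every 2T3 array and replicate 1 did not. The difference was 1.38 (SE 0.58, adjusted p = 0.205), and it passed with equal medians (2.18, adjusted p = 0.0145). Ptpn11 (SHP-2), which relays growth factor signals to Ras, was above the limit on all arrays, from 10.4 to 128 in 2T3 and from 21.2 to 106 in MLO-Y4. It gave a difference of 0.46 (interval -0.87 to 1.78, adjusted p = 0.746). Ptpn22, known from lymphocytes, lay at 1.53 (SE 0.57, adjusted p = 0.143). It exceeded the limit on 5 MLO-Y4 arrays and on 2 2T3 arrays, both C0. Ptpn9 differed by -1.32 (SE 0.61, adjusted p = 0.249). The other 7 (Ptpn2, Ptpn5, Ptpn6, Ptpn13, Ptpn14, Ptpn18 and Ptpn20) lay between -1.04 and 1.07.

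Of the 12 receptor phosphatase spots, which include the CD45-associated gene Ptprcap, none passed. Only Ptprm, a homophilic adhesion receptor, was above the limit on all arrays. It lay from 49.3 to 262 in 2T3 and from 63.9 to 155 in MLO-Y4, a difference of -0.57 (SE 0.30, adjusted p = 0.333). Ptprv, the osteotesticular phosphatase known from mouse osteoblasts, was at 18.4, 22 and 36.6 in 2T3 C0, 23.6, 21.7 and 14.1 in 2T3 low, 22.8, 14.5 and 13.8 in MLO-Y4 low, and 6.83, 19.2 and 24.8 in MLO-Y4 high. The lines overlapped over most of that range, and the difference was -0.48 (interval -1.28 to 0.33). Ptpre, which has a role in osteoclasts, lay at -1.33 (SE 0.65, adjusted p = 0.284). Ptprc (CD45), the pan-leukocyte phosphatase, was above the limit on no array.

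The phosphatase 2A subunits gave the member that fell. Ppp2r5d encodes the B56 delta regulatory subunit, which chooses substrates for the enzyme. It was at 18.4, 14.2 and 19.7 in 2T3 C0, 48.5, 28.5 and 30.3 in 2T3 low, 7.92, 6.08 and 6.08 in MLO-Y4 low, and 16.2, 6.08 and 21.2 in MLO-Y4 high. The MLO-Y4 high arrays overlapped those of 2T3 C0, while the MLO-Y4 low arrays lay below all 2T3 arrays. Averaged over both densities, the fall was -1.41 on the log2 scale (SE 0.32, 95% interval -2.13 to -0.69, adjusted p = 0.0216). Between arrays of the same number it was -1.40, -1.73 and -1.11. The line difference was -2.39 at low density (adjusted p = 0.0173) but -0.43 at the dense states (adjusted p = 0.797). The spot was dim. It exceeded the limit on all 6 2T3 arrays and on 1 MLO-Y4 array. The limits differed between arrays, and on replicate 1 of MLO-Y4 low and high they were 47.2 and 47.8 after normalization. Those limits exceed every 2T3 value but 48.5, so the counts do not show presence against absence. The size depends on the floor, and with a floor set at the 50th percentile the difference was -0.26 (adjusted p = 0.316). The call was kept under both other scalings and lost without 2T3 C0 replicate 3 (adjusted p = 0.0538), MLO-Y4 low replicate 2 (0.0528) or MLO-Y4 low replicate 3 (0.0519).

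The other 2A subunits also had point estimates below 0, and did not pass. Ppp2cb, a catalytic subunit, was at 933, 594 and 809 in 2T3 C0, 274, 1596 and 972 in 2T3 low, 388, 413 and 132 in MLO-Y4 low, and 382, 271 and 115 in MLO-Y4 high. Apart from 2T3 low replicate 1, every 2T3 array lay above every MLO-Y4 array. Its difference was -1.59 (SE 0.51, adjusted p = 0.0886). Ppp2r1a, the scaffold subunit, lay from 280.3 to 486 in 2T3 and from 176 to 378 in MLO-Y4. The difference was -0.67 (SE 0.28, adjusted p = 0.204), and 0.18 with equal medians, so 2 of the 3 subunits kept their sign under the 3 scalings.

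The promoters of the 2 called genes are shown, since they are the members that the test set apart. They come from RefSeq on GRCm38.p6 and cover the 250 bases before the annotated start on the strand of the gene, in lower case with motif matches in capitals. Searched on both strands were the AP-1 site TGANTCA, the CRE TGACGTCA, the GC box GGGCGG, the letters CCAAT and the letters TATAAA. Over 32851 RefSeq promoters these were found in 6.75%, 1.55%, 32.7%, 33.8% and 12.4%. Of the 66 member genes with an entry, 3, 6, 50, 21 and 6 had a match in any of their promoters. A gene can have several promoters, so these counts per gene cannot be set against the shares per promoter.
Mapkapk2, chr1:131097844-131098093, minus strand: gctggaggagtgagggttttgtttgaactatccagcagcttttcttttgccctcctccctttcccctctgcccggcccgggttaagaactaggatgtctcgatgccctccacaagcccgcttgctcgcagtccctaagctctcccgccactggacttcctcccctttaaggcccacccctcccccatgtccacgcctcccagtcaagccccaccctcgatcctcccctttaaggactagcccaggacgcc
Ppp2r5d, chr17:46705027-46705276, minus strand: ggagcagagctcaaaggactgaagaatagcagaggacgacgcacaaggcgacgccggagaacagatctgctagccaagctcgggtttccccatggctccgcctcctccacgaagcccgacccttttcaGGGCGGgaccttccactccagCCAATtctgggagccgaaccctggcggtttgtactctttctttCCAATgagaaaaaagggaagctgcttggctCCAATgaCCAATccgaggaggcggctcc
The Mapkapk2 window held none of the 5 motifs. That of Ppp2r5d held 1 GC box and 4 copies of CCAAT, and a window for a second annotated start overlaps it. A match is a description of letters, not evidence of a factor.

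The remaining serine/threonine phosphatase genes did not pass in the fit without a block. Ppp1r15a (GADD34), which brings phosphatase 1 to the translation factor eIF2 alpha under stress, was above the limit on all arrays. It was at 24.3, 18.7 and 45.1 in 2T3 C0, 30.3, 27.3 and 70.1 in 2T3 low, 89.3, 41.3 and 115 in MLO-Y4 low, and 110.2, 25.1 and 93.7 in MLO-Y4 high. Replicate 2 was the lowest array of all 4 groups for this gene, and the difference was 1.09 (SE 0.47, adjusted p = 0.220), which passed with the array number as a block (0.0440). Ppp1cc, the gamma catalytic subunit of phosphatase 1, differed by -0.41 (SE 0.48) and its inhibitor gene Ppp1r14b by -0.59 (SE 0.35). Both signs turned under equal medians. Ppp1r17, an inhibitor of phosphatases 1 and 2A, lay at -0.89 (SE 0.71). Ppp3cc, a calcineurin catalytic subunit, was above the limit on 2 arrays. Ppp4c, the catalytic subunit of phosphatase 4, differed by 0.54 (interval -0.30 to 1.39).

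Among the 7 protein kinase C spots none passed. Prkci (iota), an atypical isoform of cell polarity, was above the limit on all arrays, with 673, 673 and 641 in 2T3 C0, 286, 1137 and 589.6 in 2T3 low, 576, 558 and 489 in MLO-Y4 low, and 673, 529.7 and 488 in MLO-Y4 high. The groups overlapped, and the difference was -0.17 (interval -0.87 to 0.52). Prkcd (delta) lay from 123 to 418 in 2T3 and from 130.5 to 194 in MLO-Y4. Its difference was -0.68 (SE 0.27, adjusted p = 0.180), and 0.07 under equal medians. Prkcz (zeta) lay at -1.02 (SE 0.45, adjusted p = 0.224) and Prkcq (theta) at -0.90 (SE 0.49). Prkce (epsilon) differed by 0.73 (SE 0.47). Prkcb (beta) was above the limit on 1 array and Prkch (eta) on 2.

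Of the protein kinase A genes, the catalytic Prkaca and Prkacb differed by -0.48 (SE 0.64) and 0.30 (SE 0.70) and the regulatory Prkar1b by 1.30 (SE 0.73, adjusted p = 0.366). Prkag1, the gamma subunit of the energy sensor AMPK, was above the limit on all arrays. It was at 318, 295 and 248 in 2T3 C0, 221, 305 and 249.8 in 2T3 low, 255, 197 and 298 in MLO-Y4 low, and 156, 226 and 357 in MLO-Y4 high. All groups overlapped and the difference was -0.17 (interval -0.73 to 0.38), or 0.61 with equal medians.

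The AKT genes, whose kinases carry survival and insulin signals, had point estimates of opposite sign, and neither passed. Akt1 was at 512, 891 and 866 in 2T3 C0, 1368, 536 and 481 in 2T3 low, 434, 314 and 430.1 in MLO-Y4 low, and 333, 249 and 323 in MLO-Y4 high. Every 2T3 array lay above every MLO-Y4 array. The difference was -1.08 (SE 0.31, interval -1.76 to -0.39, adjusted p = 0.0572), with -1.14, -1.30 and -0.79 between arrays of the same number. It was -0.22 (adjusted p = 0.792) with equal medians, and it passed when 2T3 C0 replicate 1 was left out (adjusted p = 0.0428) or all 4 arrays numbered 1 were (adjusted p = 0.0268). Akt2 was at 241, 240.4 and 297 in 2T3 C0, 166, 165 and 192 in 2T3 low, 311, 299 and 275 in MLO-Y4 low, and 246, 359.9 and 375 in MLO-Y4 high. Only 1 2T3 array, C0 replicate 3, reached into the MLO-Y4 range, above MLO-Y4 low replicate 3 and high replicate 1. The difference was 0.54 (SE 0.19, adjusted p = 0.131), and 1.34 (adjusted p = 0.0153) with equal medians. In all, arrays of the lines did not overlap for 3 member spots, Akt1, Ptpn12 and Mapkapk2, against 5.84% of all spots. Of these 1 was higher (4.1% of all spots) and 2 were lower (1.75%).

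Within the osteoblast line, C0 was compared with low density. No member passed, and neither did any other spot (0.0% of 5030). At an unadjusted p under 0.05 there were 7 member spots (8.75%, against 5.29% of all spots). Arrays did not overlap for 14 member spots, a share of 17.5% against 9.05% of all spots. Of these 9 were higher in C0 (11.25%, against 4.87%) and 5 lower (6.25%, against 4.17%). Dusp1 was among the latter. Its 3 C0 arrays (181, 201 and 196) lay below the 3 low-density arrays (452, 578 and 752), a difference of -1.59 (SE 0.60, adjusted p = 0.929). Prkcq was at 10.4, 36.5 and 23.4 in C0 and at 151, 64.6 and 58.9 at low density, a difference of -2.0 (SE 0.70). Map3k8 gave -1.37 (SE 0.61), with overlap. In the other direction Ptprm was at 262, 166 and 207 in C0 and at 129.7, 49.3 and 102 at low density, a difference of 1.26 (SE 0.43). Ppp1cc (958, 904 and 615 against 101, 411 and 481) gave 1.58 (SE 0.68) and Mapkapk5 (309, 251 and 287 against 118, 61.3 and 242) gave 1.22 (SE 0.54). These also separated without overlap, with an adjusted p of 0.929 each.

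Within the osteocyte line, high was compared with low density. No member and no other spot passed (0.0%). At an unadjusted p under 0.05 there was 1 member spot, Ptpn6, against 2.31% of all spots. Ptpn6 (SHP-1), a phosphatase best known from blood cells, was at 8.25, 6.08 and 19.2 at high and at 47.2, 21.6 and 23.5 at low density, a difference of -1.54 (SE 0.68, adjusted p = 1.0). Arrays did not overlap for 5 member spots (6.25%, against 4.51% of all spots), with 4 higher at high density (2.41% of all spots) and 1 lower (2.11%). Map3k8 was among them, with the high arrays from 47.4 to 116 and the low arrays from 19 to 45.1, a difference of 1.15 (SE 0.61). Ppp2r5d differed by 0.95 (SE 0.46) and Ptpro by 0.58 (SE 0.31), the latter below the limit on every array. Map3k2 lay at -0.90 (SE 0.58) and Prkch at -0.66 (SE 0.43), both near the floor. The MLO-Y4 arrays of the same number varied together, and with the number as a block within each line the count of members called stayed at 0 in both lines.

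The difference between the 2 density effects was tested directly, and 0 members passed, as did 0.0% of all spots. At an unadjusted p under 0.05 there were 5 members (6.25%, against 2.88%), all with a more positive effect in MLO-Y4. Prkcq had the smallest p, with 3.29 (SE 0.99, adjusted p = 1.0 in limma). It joins a difference of -2.0 in 2T3 to one of 1.28 in MLO-Y4, where the low-density arrays were all under the limit. The others, in order of p, were Ppp2r5d with 1.95 (SE 0.65), Map3k8 with 2.53 (SE 0.87), Prkcz with 2.38 (SE 0.89) and Dusp1 with 2.17 (SE 0.85). On the negative side Mapk8ip1 lay at -1.75, Map3k12 spot 2 at -1.66 and Mapkapk5 at -1.40. The 2 density effects share no arrays.

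**Figure D3:**
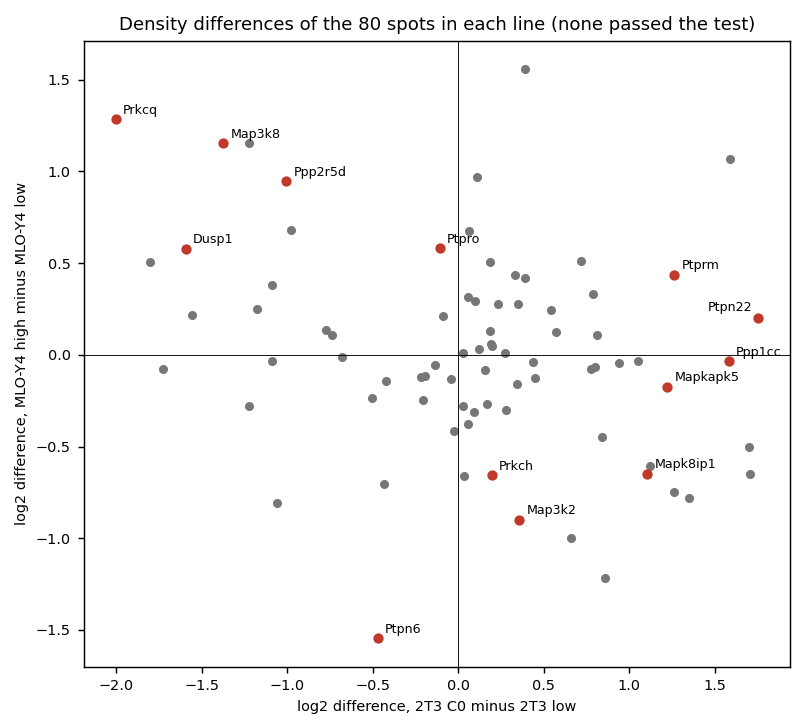
Log2 difference of each of the 80 member spots by density, 2T3 C0 minus low (x axis) against MLO-Y4 high minus low (y axis), each from 3 against 3 arrays. Red points carry names, and none passed the test on either axis, including Prkcq at -2.0 and 1.28 and Ptpn6 at -0.47 and -1.54.

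The lines were also compared at each density, with 3 of the same arrays a side. At low density 1 member passed, Ppp2r5d, as lower (3.94% of all spots passed, 2.86% as higher and 1.07% as lower), with a difference of -2.39 (SE 0.46, adjusted p = 0.0173). No MLO-Y4 low array was above the limit. With those arrays set at their limits the fall was 1.65-fold, a point value without an interval. The call was lost without either of 2T3 low replicates 1 and 3 and MLO-Y4 low replicates 2 and 3 (adjusted p from 0.0527 to 0.0656). At that density 12 members were under an unadjusted p of 0.05 (15.0%, against 15.4%), and arrays did not overlap for 17 (21.25%, against 18.9%), 7 higher (10.4% of all spots) and 10 lower (8.49%). At the dense states, MLO-Y4 high against 2T3 C0, 0 members passed, against 3.36% of all spots, and 8 were under an unadjusted p of 0.05 (against 14.2% of all spots). Arrays did not overlap for 11 (13.75%, against 16.6%), 3 higher (8.65% of all spots) and 8 lower (7.95%). Map3k8 stood at the threshold with 2.59 (SE 0.61, adjusted p = 0.0512). It passed with the array number as a block (0.0268), without 2T3 C0 replicate 1 (0.0332), and without 2T3 low replicate 3 (0.0408). Mapkapk2 was at 1.22 (adjusted p = 0.206) and passed without MLO-Y4 high replicate 2 (1.69, adjusted p = 0.0422). Mapk14 was at 1.47, Mapk8ip1 at -1.94, Akt1 at -1.29 and Mapkapk5 at -1.33. Ppp2r5d, called at low density, was at -0.43 here (adjusted p = 0.797).

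Part of the spread among members ran with the array number in place of the group. For 23 member spots replicate 1 was the highest array in both MLO-Y4 groups (28.75%, against 23.3% of all spots), and for 14 it was the lowest (17.5%, against 14.8%). Replicate 3 was the lowest in both for 24 (30.0%, against 14.0%). Replicate 1 was the highest in all 4 groups for Mapk6, Mapk9, Mapkbp1 and Ptpn14 (5.0%, against 4.97% of all spots). It was the lowest in all 4 for Dusp8, Dusp13, Mapk7, Ppp1r17 and Ptprcap (6.25%, against 4.95%). Dusp8 was at 15.1, 581 and 1244 in 2T3 C0, 176, 562 and 453 in 2T3 low, 58.8, 376 and 436 in MLO-Y4 low, and 42.6, 314 and 707 in MLO-Y4 high. Ptprcap was at 10.4, 625 and 278 in 2T3 C0, 157, 697 and 602 in 2T3 low, 6.08, 399 and 327 in MLO-Y4 low, and 6.08, 376 and 297 in MLO-Y4 high. On both spots replicate 1 lay below the other arrays of its group in all 4 groups. Ptpn5 and spot 1 of Map3k12 had their lowest array at replicate 1 in 3 groups and not in 2T3 low. The median within-group SD of log2 values ran from 0.727 to 0.849 over the members and from 0.644 to 0.749 over all spots. The labels do not say what the array numbers stand for. Calls that the number as a block added are given beside each member. The block fits 1 effect per number over all 4 groups. Yet deviations of same-numbered 2T3 low arrays correlated at only -0.111 to 0.152 with those of 2T3 C0 or MLO-Y4 low. The added calls, and differences between arrays of the same number, thus rest on a pairing not seen for 2T3 low. The fit without a block takes all 12 arrays as independent. Its SEs, intervals and p-values between the lines, those of Mapkapk2 and Ppp2r5d included, leave out the pairing seen among the other groups.

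**Figure D4:**
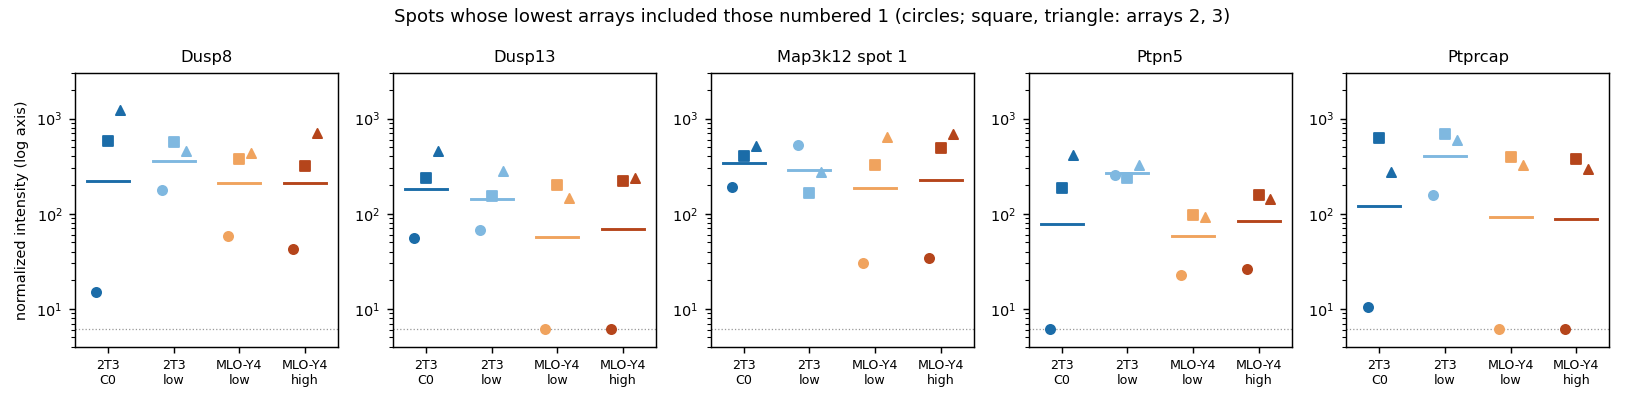
Normalized intensity (log axis) of 5 member spots on the 12 arrays by group, with circles for replicate 1, squares and triangles for replicates 2 and 3, a bar at the geometric mean and a dotted line at the floor of 6.08. The spots were chosen because replicate 1 is the lowest array of both MLO-Y4 groups and of 2T3 C0, as in every panel. It was so for 12.5% of member spots, against 11.3% of all spots. Replicate 1 was the highest in those 3 groups for 15.0%, against 13.9%.

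Genes that feed these kinases or answer to them were taken from 7 lists, of which 133 of 234 symbols were measured. Among immediate early genes, which answer to MAP kinase activity, 7 of 20 rose in MLO-Y4 and 0 fell, and the median line difference was 1.01. With equal medians the count was 8 and 0, and on detected spots 6 and 1. The 3 with the smallest p were Fosl1, which encodes an AP-1 subunit (1.86, SE 0.20), Phlda1 (3.08, SE 0.35) and Egr3 (2.74, SE 0.37). Hbegf, Ier5, Myc and Maff were the others. Of 18 PI3K and AKT pathway genes 3 rose and 0 fell, under all 3 scalings, namely the AKT-inhibited transcription factor Foxo1 (3.39), the growth kinase Mtor (2.79) and Sgk1 (2.19), a kinase related to AKT. Of 20 stress inputs to JNK and p38, 3 rose (the receptor genes Tnfrsf1b, 2.91, and Il1r1, 2.71, and Tank, 2.07, which was above the limit on 1 2T3 array) and 1 fell, Rhoa (-1.22), a fall that did not pass with equal medians.

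Of the 26 spots for inputs and anchors of the protein kinases A and C, 2 rose and 5 fell. With equal medians the counts were 3 and 4, and on detected spots 2 and 7. Pde4b, a phosphodiesterase that degrades cyclic AMP, rose by 3.72 (SE 0.30), and Pkig, an inhibitor of protein kinase A, fell by 2.60. Pde4b was above the limit on 1 2T3 array and Pkig on 2 MLO-Y4 arrays, so their sizes rest partly on the floor. Gna11, a G protein of the phospholipase C route, fell by 1.21, and did not pass with equal medians. Among 21 Ras, Raf and adaptor genes 1 rose and 2 fell. Mras, a Ras relative, fell by 3.44 (SE 0.29) and was above the limit on 2 MLO-Y4 arrays. Spry1, a feedback inhibitor of Ras signalling, was above the limit on no MLO-Y4 array. With those arrays set at their limits it was 1.46-fold lower, a point value without an interval. Grb7, an adaptor above the limit on 1 2T3 array, rose by 2.67 and did not pass on detected spots. Of 12 genes below the MAP kinases 1 rose, the p38 target Mef2a (1.58), and 0 fell. Of 17 other phosphatases 0 rose and 1 fell, Cdc25c (-1.74), which did not pass with equal medians. The share of all spots called was 9.3%, as above, and the list medians other than that of the immediate early genes ran from -0.57 to 0.27, against -0.03 over all spots.

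Markers of other cell types were read beside these results. Of 6 macrophage or osteoclast markers, Csf1r rose in MLO-Y4 by 0.99, a call lost under both other scalings, and Tyrobp fell by 3.25. Csf1r exceeded the limit on 2 MLO-Y4 arrays and 1 2T3 array and Tyrobp on 1 MLO-Y4 array, so these sizes rest partly on the floor. Their summed intensity ran from 222 to 513 in 2T3 C0, 400.4 to 492 in 2T3 low, 207 to 368 in MLO-Y4 low and 208 to 518 in MLO-Y4 high, so the groups overlapped. None of 3 leukocyte, 5 endothelial, 3 muscle or 5 neural markers passed, with the leukocyte marker Ptprc above the limit on no array. Pparg, of 2 adipocyte markers, fell and Col10a1, of 2 chondrocyte markers, rose. The part of such cells in the member results was not tested.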

How the data were processed

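Per the labels, total RNA of 12 samples was measured on single-channel spotted arrays. The authors deposited 1 table of linear spot intensity, from -23 to 53055, with background already subtracted, as the negative values show. How images were read and background was measured is not stated there. No column was left out. Symbols came from the platform annotation, and for 4624 spots the RefSeq symbol of the Entrez ID was used, whether or not it differed. No member symbol changed.

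Intensities were quantile-normalized, floored at the 25th percentile (6.08), log2-transformed and fitted with limma 3.58.1 in R 4.3.3 (4 group means, 12 arrays, 8 residual degrees of freedom, Benjamini-Hochberg over 5030 spots). The fit was tested on simulated data with noise independent between arrays. The simulated line differences were larger than those of Mapkapk2 and Ppp2r5d, in spots brighter than Ppp2r5d, so that test does not cover those calls. All members past the threshold are named, or else the 3 with the smallest p in each direction, besides fixed genes, some of which are not reported here. Other cases named, such as spots near the threshold, were chosen after their values were seen, as was the detection limit. Members, lists and tests were chosen with earlier results of these data known. Array numbers were checked for pairing by the correlation of deviations from group means over spots. It was 0.625, 0.475 and 0.505 between the MLO-Y4 densities and 0.526, 0.311 and 0.368 between 2T3 C0 and MLO-Y4 high, so numbers pair those groups. It was 0.0388, 0.0645 and 0.152 between the 2T3 groups and 0.00284, -0.111 and 0.131 between the lines at low density. The number of arrays limits the precision.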

Additional observations from a re-analysis of the deposited data

How the results depend on the processing

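Counts of members called in the 2T3 density, MLO-Y4 density and density difference comparisons were 0 under every alternative run. Between the lines the count was 2, and 5 with equal medians (Akt2, Mapkapk2, Ppp2r5d, Ptpn1 and Ptpn4), 5 on detected spots (Map2k1, Mapk12, Mapkapk2, Ppp2r5d and Ptpn12) and 5 with the replicate block (Map3k8, Mapk6, Mapkapk2, Ppp1r15a and Ppp2r5d), and it ran from 0 to 5 when 1 array was left out. At low density it was 1 (Ppp2r5d), and 2 on detected spots (with Prkcq), 2 with the floor at the 50th percentile (Akt2 and Mapk12, with Ppp2r5d at -0.52, adjusted p = 0.187), 2 without both MLO-Y4 arrays numbered 1 (with Prkcq), and from 0 to 2 without 1 array. At the dense states it was 0, and 1 with dim spots left out, 1 with the replicate block (Map3k8 in both), 1 without the 4 arrays numbered 1 (Akt1), and from 0 to 1 without 1 array. In the main fit 9.3% of all spots passed between the lines, 3.94% at low density and 3.36% at the dense states. Shares of all spots are not set beside the counts of the other runs, so those counts do not show a gain among members. The replicate block within each line left both density counts at 0. The last 2 settings without arrays numbered 1 were chosen after seeing the data. Without both MLO-Y4 arrays numbered 1, Mapkapk2 stood at 1.03 (adjusted p = 0.103) between the lines, and without all 4 arrays so numbered at 1.06 (0.207), where Ppp2r5d stood at -1.49 (0.139) and, at low density, at -2.42 (0.142). Over the whole array 2, 1 and 2 spots, none of them members, passed in the 3 density comparisons with the floor at the 50th percentile, against 0, 0 and 0. The line difference of Mapk8 turned to -0.15 on detected spots and that of Dusp1 to 0.15 with equal medians. The causes were not tested. Spots near the floor, as Ppp2r5d is in MLO-Y4, limit what sizes can be read.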
